A study of Gallus gallus with 3 samples.

Results

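Chicken miRNAs numbered 1550 to 1816 entered the miRNA catalogue from small-RNA sequencing of chick embryos, and many were first described in birds. The question here was which of them gave a signal in leg muscle at 7 weeks of age, how bright they were and whether their signal differed between a dwarf and a normal chicken strain. The members were the miRNA probes whose name carries a number in that range, with any letter or arm suffix and with no asterisk, the mark of the minor strand of a hairpin. They made up 269 of the 542 miRNAs on the array. The rest of the array held 77 miRNAs with an asterisk, 168 let-7 and lower-numbered miRNAs and 28 higher-numbered miRNAs.

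A miRNA is a short RNA cut from a hairpin. It pairs with target mRNAs mainly through its seed, bases 2 to 8, and reduces the protein made from them. In skeletal muscle the miR-1, miR-206 and miR-133 families are abundant and act in muscle formation. Many miRNAs of the embryo-cloned block have no function known with certainty in any tissue, so what is described here is their sequence, their signal and the gene they lie in.

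Each of 3 two-colour arrays compared 1 pool of leg muscle RNA from dwarf recessive White Rock chickens, aged 7 weeks, with 1 pool from normal recessive White Rock chickens of the same age. The dwarf strain carries a deletion in the growth hormone receptor gene GHR, in all its pools, and both strains are of meat type. A pool held RNA of 3 chickens, so the spread between single birds was not measured. The dwarf pool was in Cy5 on arrays 1 and 3 and in Cy3 on array 2. The small RNAs were extended with a poly(A) tail before the dye tag was attached. Signals are background-subtracted spot intensities in scanner units, averaged over the 6 spots of a miRNA and brought to one level over the arrays. Levels of different miRNAs also depend on how well each probe binds, so the order of signals is an order of brightness and not of molecules. In a bulk pool, fewer cells of a type and less RNA per cell cannot be told apart.

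Of the 7 muscle miRNAs on the marker list, 6 were detected, and their summed signal was 30652 to 69190 in dwarf pools and 36119 to 59762 in normal pools. The undetected one was miR-1b. The brain list (2 miRNAs), the pancreas list (1) and the embryonic or germ cell list (5, the miR-302 cluster and miR-367) had no detected member. Of the 4 blood miRNAs 2 were detected, miR-451 and miR-223, with a summed signal of the list of 50.3 to 127 in dwarf pools and 86.4 to 114 in normal pools. The liver miRNA miR-122 gave 76.1 ± 68.4 in dwarf pools and 193 ± 85.1 in normal pools (SD, n = 3 each), and the vessel miRNA miR-126 was detected too. The part of blood, liver or vessel RNA in the signals below was not tested.

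A miRNA was called detected where its mean signal over the 3 pools of a strain was above 32, and 15 members met this in at least 1 strain. Their mature sequences, as the array annotation gives them, are shown here because almost all that they share can be seen in the letters: most are made largely of G, several in repeated runs. They run 5′ to 3′ in order of brightness, and the capitals mark the seed.

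miR-1599: gGAGGGAGgaaaaaaaaaaa
miR-1777: gUGGGCGGugcggggcggcg
miR-1576: cUCGGGCGggcggagcggcac
miR-1607: aGGGGCGGgaggggucgggc
miR-1584: cCGGGUGGggcugggcuggg
miR-1623: gCAGGCACagacaggcagua
miR-1770: cUGCGGGGgaggagggaggggg
miR-1759: uAGGGUAGgaggagagaggugu
miR-1629: uGCUGUCGguggguuuguucu
miR-1579: cGUGGCGGgaagggaugggcg
miR-1763: gAGGGCGGgagcggagcgcggga
miR-1587: gGGCUGGGcugggcugggca
miR-1640: uUGUCACUgcagggccccgcggcc
miR-1812: aUAUAUACuguauacuguguca
miR-1669: gUGGGCUCagagcaggcaca

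No 2 of these 15 shared a seed. Only miR-1812 shared its seed with any other miRNA of the array, miR-466, which was above 32 in no pool. Across all 269 members, 250 had a seed that no other miRNA on the array carried. The seeds of miR-1777, miR-1607 and miR-1763 differ in their first base and share the 6 bases GGGCGG. This run, a motif searched on the mature strand after the sequences had been seen, occurred in 4 of 15 detected members (in miR-1576 it overlaps the seed) and in 2 of 254 undetected members, miR-1716 and miR-1790. It occurred in 7 of the 542 miRNAs of the array, or 1.29%.

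Few of the embryo-cloned miRNAs were visible in this muscle. In dwarf pools 14 of 269 members (5.20%) were detected, and in normal pools 12 (4.46%). Over the rest of the array 71 of 273 (26.01%) were detected in dwarf pools and 68 (24.9%) in normal pools, and among let-7 and the lower-numbered miRNAs 65 of 168 (38.7%) and 63 (37.5%). The other classes were detected less often. Of the higher-numbered miRNAs it was 4 of 28 (14.3%) in dwarf pools and 3 (10.7%) in normal pools. Of those with an asterisk it was 2 of 77 (2.60%) in each strain, a smaller share than in the members. By pool, the members above 32 numbered 17, 9 and 16 in dwarf pools 1 to 3 and 15, 11 and 14 in normal pools 1 to 3. Only 9 members were above 32 in all 6 pools, and 247 were above it in none. The 254 members detected in neither strain had mean signals over the 6 pools of -6.71 to 22.4, with a median of 0.74. A miRNA below 32 may be present at a level that this array did not detect.

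The members detected in both strains numbered 11. The 3 detected in dwarf pools only were miR-1587, miR-1640 and miR-1669, and the 1 detected in normal pools only was miR-1812. Being detected in 1 strain did not mean that the strains were apart. miR-1587 averaged 38.0 ± 15.7 in dwarf pools and 29.6 ± 18.9 in normal pools, on both sides of the limit and well within the spread of the pools. Just under the limit, miR-1658 averaged 17.9 ± 14.4 in dwarf pools and 26.8 ± 21.0 in normal pools. miR-1664 averaged 23.0 ± 21.7 in dwarf pools and 20.5 ± 16.7 in normal pools. miR-1790 averaged 23.2 ± 8.61 in dwarf pools and 20.05 ± 7.77 in normal pools (SD, n = 3 each throughout).

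For 2 of the 15, the detection came from a single spot. miR-1640 had dwarf signals of 124, -1.57 and 2.87 against normal signals of 40.8, 0.22 and 6.24. On array 1, 1 of its 6 spots stood at 321 in Cy3 and 213 in Cy5 above background, while the other 5 were at most 0.15 in Cy3 and 4.0 in Cy5. miR-1812 had dwarf signals of -6.79, -0.01 and 68.9 against normal signals of 2.57, 1.46 and 92.4. On array 3, 1 of its 6 spots stood at 657 in Cy3 and 374 in Cy5, while the other 5 reached at most 43.0 and 1.14. The undetected miR-1709 showed the same on array 2. With the median of the spots in place of the mean, an alternative chosen after seeing the data, 13 members were detected in dwarf pools and 11 in normal pools.

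**Figure D1:**
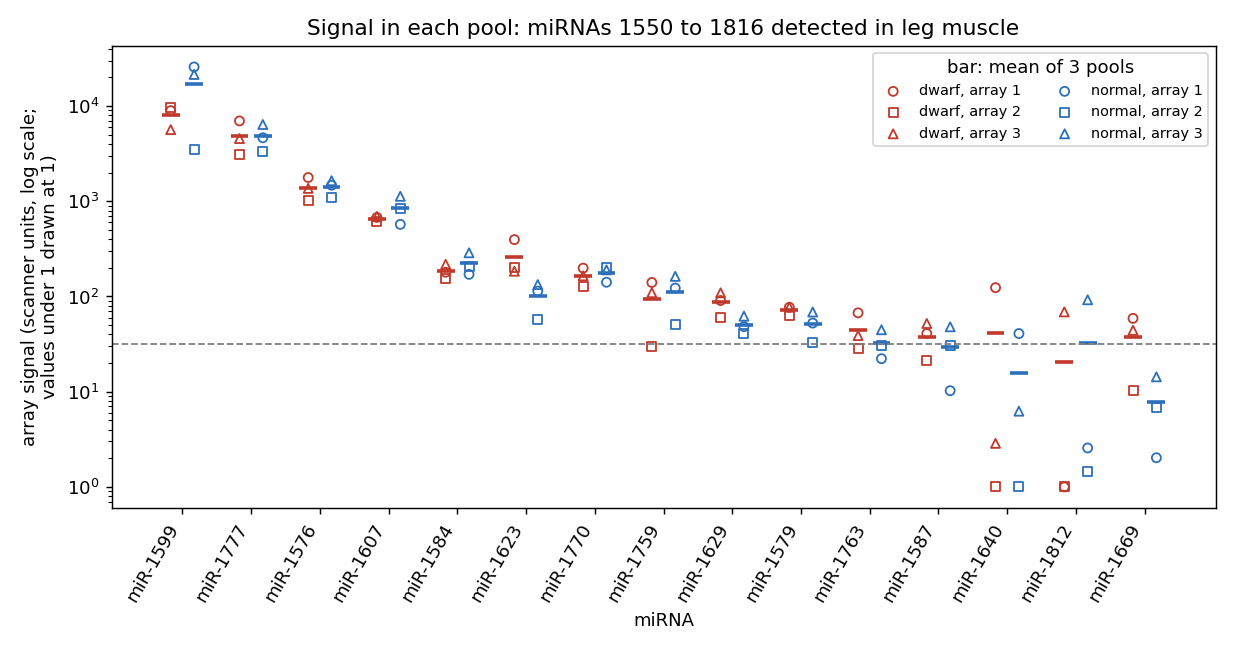
Signal of the 15 detected members in each pool, in scanner units on a log axis, with dwarf pools in red on the left and normal pools in blue on the right of each name; bars are means of 3 pools, and the dashed line is the limit of 32. Only miR-1623 has its dwarf pools (184 to 396) all above its normal pools (57.3 to 133), and the points of miR-1640 and miR-1812 far above the others of their column rest on 1 spot each.

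The brightest member by far was miR-1599, whose mature sequence ends in 11 A. Its signal was 8949, 9673 and 5663 in dwarf pools 1 to 3, against 25771, 3532 and 21487 in normal pools 1 to 3, and it ranked 4 among the 542 miRNAs. The normal pools lay both above and below the dwarf pools. What did stay the same from array to array was the dye: the Cy3 pool was the brighter one on all 3 arrays, and that was the normal pool on arrays 1 and 3 and the dwarf pool on array 2. Its 6 spots agreed closely within each array, at 24197 to 25742 in Cy3 and 2903 to 3515 in Cy5 on array 1.

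Before any dye correction, Cy3 over Cy5 was 7.86, 5.57 and 4.37 for miR-1599 on arrays 1 to 3. For the other 10 of the 11 brightest miRNAs on the array it was 1.63 to 3.36, 1.14 to 2.72 and 0.88 to 1.99. miR-1599 lay above all 10 on every array. After loess its log2 ratio of dwarf over normal was -1.50, 1.25 and -2.19. The mean of -0.81 ± 0.69 (SE) did not pass limma's test (adjusted p = 0.96), and with a dye term in the fit it was -0.29. The dye coefficient in that fit, Cy5 over Cy3, was -1.55, with an unadjusted p of 0.012 and an adjusted p of 0.81. No other miRNA on the array has a run of A longer than 5, and the 2 that have 5, miR-1551 and miR-365, gave signals of -2.14 and 9.12. The part of the A run in the signal or the dye ratio was not tested.

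**Figure D2:**
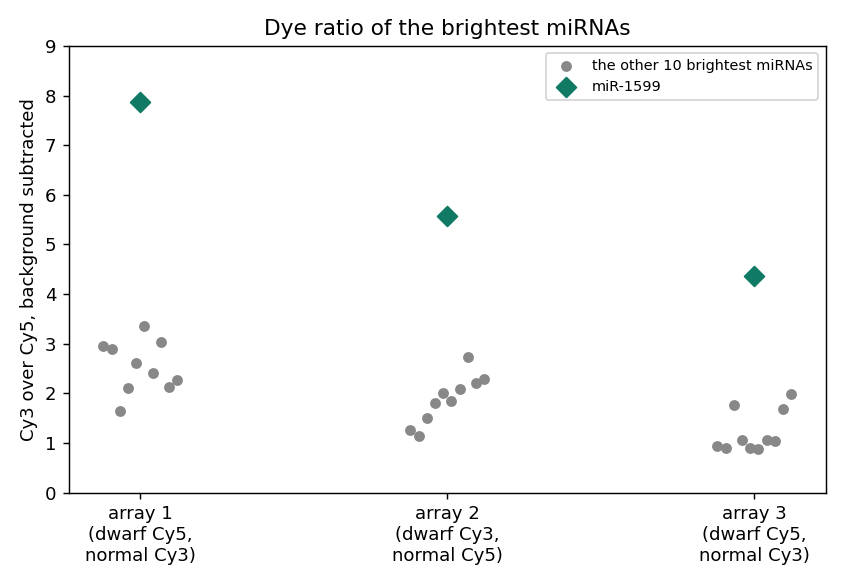
Cy3 over Cy5 after background subtraction, with no dye correction, for miR-1599 (diamonds) and the other 10 brightest miRNAs (grey points) on each array, on a linear axis; the labels under the axis give the dye of each strain. The diamonds lie at 7.86, 5.57 and 4.37, above every grey point, although the strains changed dyes on array 2.

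The next brightest members, miR-1777, miR-1576, miR-1607 and miR-1584, were GC-rich. miR-1777, which is 90% G and C, gave 6981, 3136 and 4560 in dwarf pools against 4647, 3341 and 6406 in normal pools, and ranked 10 on the array. miR-1576 (85.7% GC) gave 1776, 1028 and 1366 in dwarf pools against 1473, 1104 and 1646 in normal pools. miR-1607 (85.0% GC) gave 677, 607 and 693 in dwarf pools against 572, 834 and 1129 in normal pools. In each of the 3 the strains overlapped, and the distance between the means was smaller than the larger of the 2 SDs.

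miR-1584 and miR-1587 have 13 bases in a row in common, a stretch with repeated G runs, and their signals were far apart. miR-1584 averaged 185 ± 31.3 in dwarf pools and 222 ± 59.8 in normal pools, and miR-1587 the values around the limit given above. miR-1770, a G-rich miRNA (72.7% G), averaged 164 ± 35.4 in dwarf pools and 177 ± 31.2 in normal pools. It shares 13 bases in a row with miR-1773*, which was not detected. miR-1763 (82.6% GC) averaged 44.8 ± 20.2 in dwarf pools and 32.4 ± 11.4 in normal pools, with 3 of its 6 pools above the limit.

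The median GC content of the 15 detected members was 76.2%, against 54.5% for the 254 undetected ones, a difference of 21.6 percentage points. Over the rest of the array the detected miRNAs had a median of 45.5% and the undetected ones 47.6%, a difference in the other direction. Inside each class of the rest, however, the detected miRNAs had the higher median. It was 53.5% against 50% for miRNAs with an asterisk (2 detected). It was 45.5% against 42.5% for let-7 and lower-numbered miRNAs (66 detected), and 63.6% against 53.4% for higher-numbered miRNAs (4 detected). All these differences are descriptions, since miRNAs are not replicates of a condition. Among members with over 70% GC, 9 of 23 (39.1%) were detected, and in the rest of the array 4 of 10 (40%). Between 40 and 50% GC, where 43 of 124 miRNAs of the rest (34.7%) were detected, 0 of 78 members were. Between 50 and 60% it was 3 of 93 members against 10 of 54 of the rest. The shares of members and of the rest were thus close over 70% GC and far apart from 40 to 50% GC, with no test made of either.

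**Figure D3:**
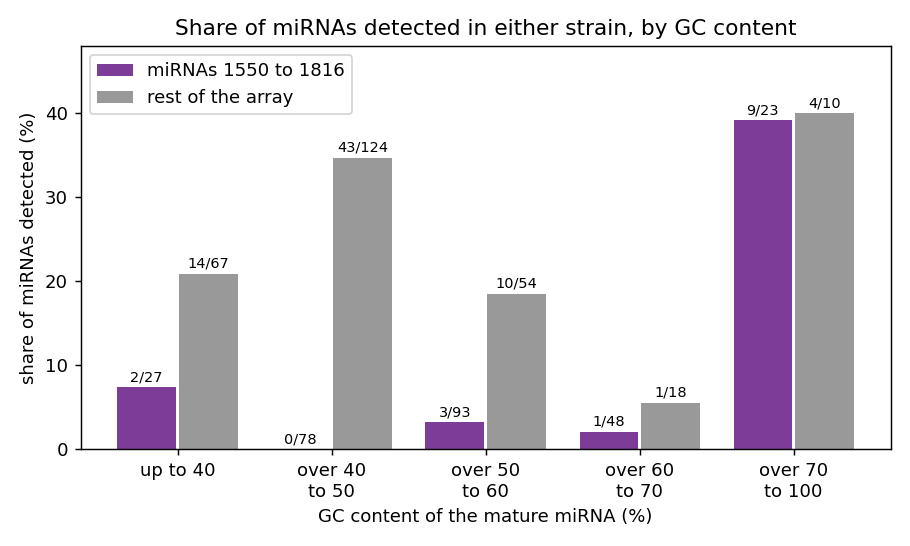
Share of miRNAs detected in either strain (%) by GC content of the mature sequence, for the miRNAs 1550 to 1816 (purple) and the rest of the array (grey), with the detected and total numbers above each bar. The bars are alike over 70% GC (39.1% and 40%), while from 40 to 50% GC the members have 0 of 78 and the rest 43 of 124.

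G rather than C made the difference in composition. The median G content was 54.5% in detected members and 33.3% in undetected ones. Of 8 members with at least 3 separate runs of 3 or more G, 6 were detected; of 12 with 2 such runs, 2; of 82 with 1 run, 5; and of 167 with none, 2. In the rest of the array the share did not rise from no run (59 of 219 detected) to 1 run (11 of 49). Too few of the rest had more runs to show an order, with 0 of 3 detected at 2 runs and 2 of 2 at 3 or more. Among miRNAs with at least 50% G, 9 of 25 members (36%) and 2 of 7 of the rest (28.6%) were detected. Neither the G runs nor the limit of 50% G was among the sequence features planned, so these counts are a description only. Many G runs did not ensure a detected signal: miR-1790, with 3 runs and 70% G, stayed just under the limit. High GC without G runs gave little: miR-1765 (85.0% GC, no run) had a mean signal of 6.46, miR-1648 (81.0% GC, no run) 2.61 and miR-1557 (80.0% GC, no run) 3.34. The part of probe binding in these signals was not tested. At the other end, miR-1815 (23.8% GC) and miR-1808 (26.1% GC) gave mean signals of -2.57 and -3.66.

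**Figure D4:**
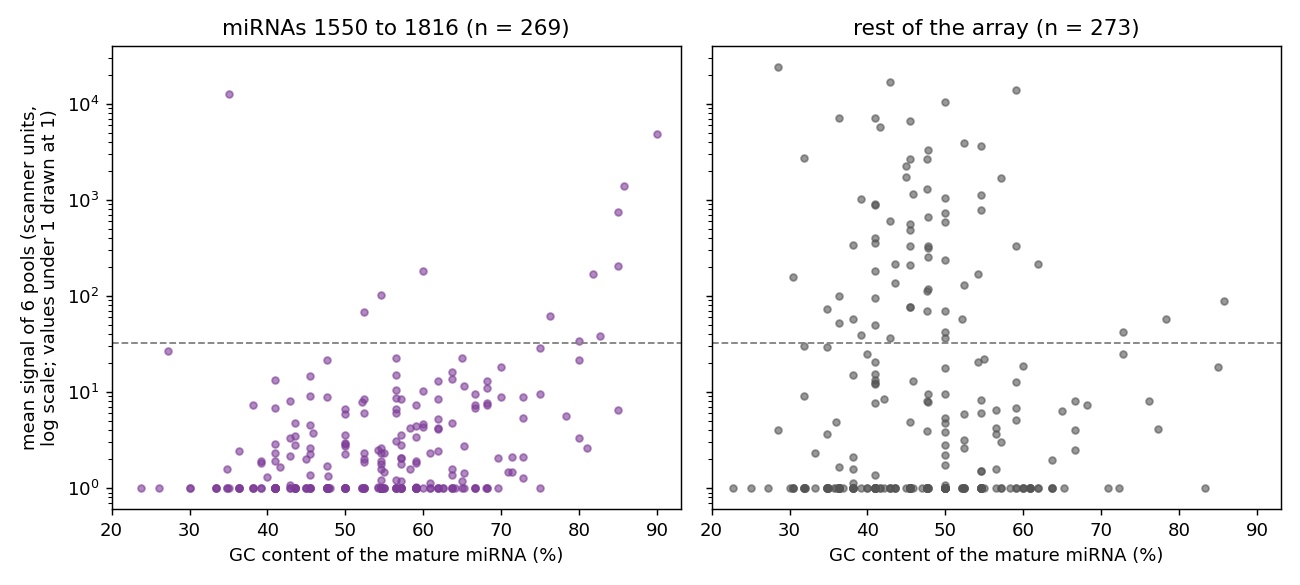
Mean signal over the 6 pools (scanner units, log axis, values under 1 drawn at 1) against GC content (%), 1 point for each miRNA, with members on the left and the rest of the array on the right; the dashed line is at 32. The bright points of the rest lie at ordinary GC contents, while those of the members lie at the high end, with miR-1599 (35% GC), miR-1623 (60% GC) and miR-1759 (54.5% GC) as the exceptions above 100.

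Between the strains, no member passed the test. All 15 detected members were tested together with the 72 other detected miRNAs by limma on the log2 ratio of dwarf over normal, with Benjamini-Hochberg adjustment over the 87, and 0 of 15 had an adjusted p under 0.05. The same held for all 87 (0%), and no adjusted p among them was under 0.62. Without adjustment 1 of 15 members had a p under 0.05, and 5 of the 87 (5.75%), so the share in the members was close to that of all tested miRNAs. Dwarf and normal pools did not overlap in 1 of 15 members and in 4 of the 87 (4.6%). The median log2 ratio of the 15 was 0.03, against 0.04 over the 87, with 8 above and 7 below 0. The sign was the same on all 3 arrays in 6 of the 15 and in 26 of the 87.

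That 1 member was miR-1623. Its signal was 396, 201 and 184 in dwarf pools 1 to 3, against 114, 57.3 and 133 in normal pools 1 to 3. After the dye correction and scaling, every dwarf pool was brighter than every normal pool. Dwarf was then higher on 3 of 3 arrays, in both dye orientations. Before the correction, the dwarf pools read 106 (Cy5), 650 (Cy3) and 152 (Cy5) above background on arrays 1 to 3. The normal pools then read 148 (Cy3), 47.2 (Cy5) and 175 (Cy3), so the Cy3 pool was the brighter one on each array. The log2 ratios were 0.82, 1.37 and 0.41, with a mean of 0.87 ± 0.22 (SE, n = 3 arrays), an unadjusted p of 0.012 and an adjusted p of 0.62 by limma. The exact two-sided sign-flip permutation test gave p = 0.25 and the exact permutation test of 3 against 3 pools p = 0.1, the smallest that each can give. Unlike the sign-flip test, the test of 3 against 3 pools does not keep the pairing of pools by array. The call depended on the arrays used: the adjusted p by limma was 0.025 without array 1 and 0.023 without array 3, where the spread used was almost wholly that pooled over the tested miRNAs, and 0.92 without array 2, with a log2 ratio of 0.61. Over all tested miRNAs, 5 of 90 were called without array 1 and 2 of 84 without array 3. miR-1623 shares 12 bases in a row with miR-214 as spotted on this array, and that probe was not detected (0.11 ± 5.82 in dwarf pools and -3.15 ± 8.89 in normal pools). The spotted miR-214 sequence was not compared with a reference sequence, so the overlap holds for this probe only. Whether miR-214 RNA binds the probe of miR-1623 was not tested.

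The next smallest p values belonged to dimmer members. miR-1629 gave 90.7, 59.5 and 109 in dwarf pools against 48.3, 40.6 and 62.2 in normal pools. The groups overlapped only in that the lowest dwarf pool was under the highest normal pool. Its log2 ratio was 0.34 ± 0.14 (SE, n = 3 arrays), higher in dwarf on 3 of 3 arrays after the dye correction, with an adjusted p of 0.62 by limma. Before the correction and scaling, miR-1629 read 22.6, 190 and 86.2 in dwarf pools against 67.0, 33.9 and 85.1 in normal pools. It shares 13 bases in a row with miR-181b, the brighter of the pair, which averaged 270 ± 33.3 in dwarf pools and 202 ± 19.5 in normal pools, with a log2 ratio of 0.39 (adjusted p = 0.62 by limma). Whether RNA of one binds the probe of the other was not tested.

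miR-1579 (76.2% GC) gave 77.0, 62.8 and 77.2 in dwarf pools against 52.6, 32.7 and 68.7 in normal pools. Its log2 ratio was 0.27 ± 0.15 (SE, n = 3 arrays; adjusted p = 0.74 by limma). miR-1669 gave 58.9, 10.3 and 44.2 in dwarf pools against 2.02, 6.80 and 14.3 in normal pools, and its log2 ratio was 0.25 ± 0.14 (SE, n = 3 arrays; adjusted p = 0.74 by limma). No normal pool of miR-1669 was above the limit. Before the dye correction and scaling, its dwarf pools read 12.2 (Cy5), 34.4 (Cy3) and 22.3 (Cy5) above background on arrays 1 to 3. Its normal pools then read 2.11 (Cy3), 5.44 (Cy5) and 23.7 (Cy3). These readings are dim, and only that of the dwarf pool on array 2 was above 32 before the correction. It has 9 bases in a row in common with miR-1623, the longest run it shares with any miRNA of the array. Like miR-1623 and miR-1629, miR-1579 and miR-1669 were higher in dwarf on 3 of 3 arrays after the dye correction, and neither passed the test.

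The bright GC-rich members had strain ratios near 0. The log2 ratio was -0.07 ± 0.26 for miR-1777, 0.04 ± 0.15 for miR-1576, -0.19 ± 0.17 for miR-1607, -0.07 ± 0.13 for miR-1584 and -0.02 ± 0.16 for miR-1770 (SE, n = 3 arrays each), all with an adjusted p of 0.96 by limma. The sign of miR-1777 changed between arrays, with 0.55, -0.13 and -0.63. miR-1759 (54.5% GC), the last of the members above 100 by its mean over the 6 pools, had 140, 30.0 and 110 in dwarf pools against 123, 50.4 and 163 in normal pools, and a log2 ratio of -0.15 ± 0.15. With 3 arrays, changes of this size cannot be told from none. When each array was centred on its median in place of loess, the median log2 ratio of the 87 tested miRNAs moved to 0.50. The ratio was then 0.77 for miR-1777, 0.38 for miR-1607, 0.35 for miR-1584, 0.37 for miR-1770, 0.12 for miR-1759 and 0.15 for miR-1599, so the sign of these 6 turned. Of the bright GC-rich members, miR-1777 and miR-1576 (0.71) stood above that shifted median and the others below it.

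**Figure D5:**
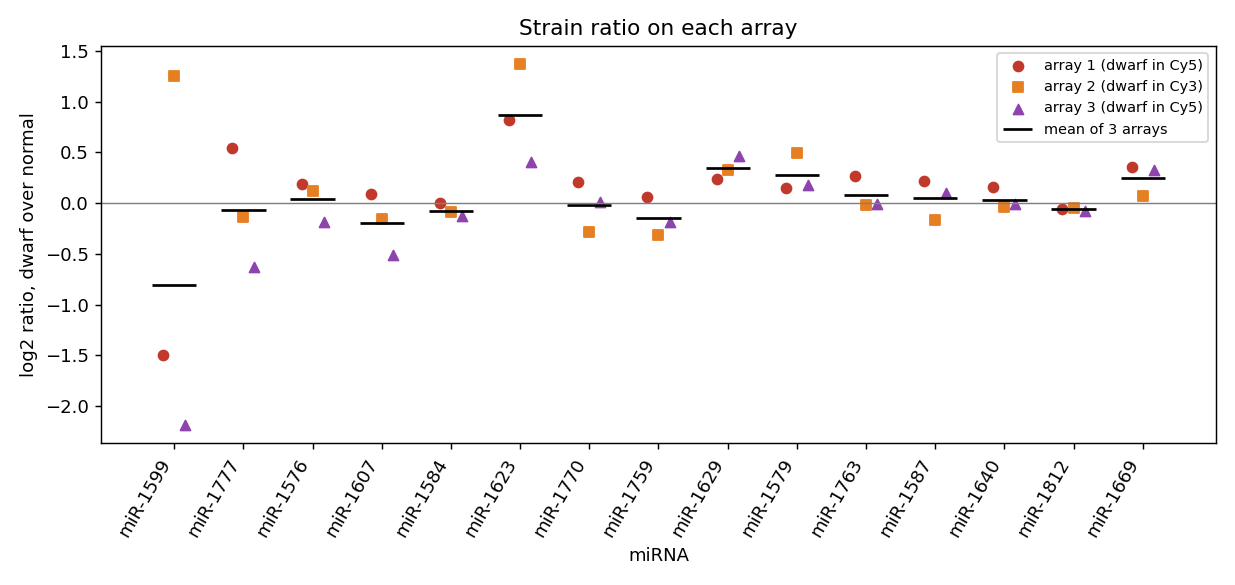
Log2 ratio of dwarf over normal for the 15 detected members, 1 point for each array, with the mean as a black bar; array 2 has the dyes swapped. miR-1623 is above 0 on all 3 arrays (0.82, 1.37 and 0.41), and miR-1599 has opposite signs on array 2 (1.25) and on arrays 1 and 3 (-1.50 and -2.19).

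Over all members, GC content moved with the dye ratio too. Across the 269 members the correlation of GC content with the log2 ratio of Cy5 over Cy3 was 0.44, 0.15 and 0.25 (Pearson) on arrays 1 to 3. As dwarf over normal it was 0.44, -0.15 and 0.25, so its sign turned with the dyes and not with the strain. Most of these points are undetected miRNAs, and they share arrays and background, so the values are a description. In the rest of the array the correlation with Cy5 over Cy3 was 0.27, 0.09 and -0.04. Among detected miRNAs alone the trend was less steady. For the 15 detected members it was 0.49, 0.44 and 0.25 (Pearson), but 0.28, 0.32 and -0.32 by rank (Spearman). For the 72 detected miRNAs of the rest it was 0.31, 0.10 and -0.29 (Pearson). With the trend on GC content taken out of each array, 1 member had an unadjusted p under 0.05 and none was called.

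The RefSeq gene table of assembly GRCg7b, which was used for names and neighbours only, held a gene for 244 of the 269 members and for all 15 detected ones. It placed 200 of the 244 inside another gene, and 8 of the 15. miR-1576 lies in PPP2R2B, which encodes a regulatory subunit of protein phosphatase 2A. miR-1607 lies in ARPP21, a cAMP-regulated phosphoprotein gene, miR-1587 in AUTS2, and miR-1640 in SMTN, the gene of smoothelin, a cytoskeletal protein of smooth muscle. miR-1777 lies in GZMM, a granzyme gene, miR-1579 in FAM35A, miR-1759 in PHACTR1, which encodes an actin regulator, and miR-1599 in an uncharacterised locus between GYPC and CNTNAP5. miR-1623 lies in no listed gene, between NEO1, which encodes the receptor neogenin, and HCN4, a pacemaker channel gene. miR-1629 is next to RUSC1, and miR-1669 is between SLC16A1, which encodes a lactate transporter, and LRIG2. The strand was not compared, and levels of these genes were not analysed here.

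For 48 members the array also carried the asterisk strand of the same hairpin. None of the 48 asterisk strands was detected (-5.88 to 18.4), and none of the 48 members beside them was (-4.70 to 22.4). No detected member had such a probe, so the ratio of the strands cannot be given for any of the 15.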

How the data were processed

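Leg muscle RNA was measured on 3 two-colour miRNA arrays of a service provider, designed from miRBase. For every spot the authors deposited a Cy3 and a Cy5 intensity, linear and with the background still in it. They also deposited log2 values, 1 ratio for each miRNA and array after background subtraction and LOWESS per the paper's methods. These log2 ratios correlated positively with the dwarf over normal ratios calculated here on all 3 arrays, and were used only as an alternative. Which dye held which strain came from the sample labels, and it matched the pool names above the columns.

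R 4.3.3 and limma 3.58.1 were used. Background was estimated for each dye from the miRNA spots by a robust loess surface (span 0.3, degree 1) on spot position. It was subtracted for signals. A loess curve through the spots above 0 in both dyes was taken out of both, read for the other spots at their own intensity (at least 1). Signals of 6 spots were averaged, and arrays were scaled to the same median, taken over miRNAs above 32 in all pools. For ratios, normexp (offset 50) and loess (span 0.3, 4 iterations) were used, and array 2 was turned. Ratios of dim miRNAs are drawn towards 0 by the offset. miRNAs with a mean above 32 in either strain were tested against 0 by lmFit and eBayes, with a threshold of 0.05 on the Benjamini-Hochberg adjusted p.

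The precision is limited by the number of arrays. In Cy3, 32 is near the noise: across miRNA spots, the signal had a median absolute deviation of 35.9, 12.8 and 30.9 on arrays 1 to 3, against 3.25, 2.71 and 4.31 in Cy5. The limit was applied after the dye correction and scaling, which could lift dim Cy5 readings above it. That of miR-1669 on array 1 went from 12.2 to 58.9. Nothing in the labels says that pools shared birds, and no pool was on more than 1 array. Named with values were members detected in either strain, the 5 with the smallest p, members the paper names, the 3 just under the limit and those of most extreme GC content. The GC-rich members with no G run were named after their values were seen. The members and lists were chosen with earlier results of these data known. The fit was tested on simulated arrays, with changes planted only in miRNAs with a signal above 100 and with no dye effect. That test therefore does not cover dimmer members or a dye ratio such as that seen for miR-1599. Alternatives covered the limit, background, normalization, spot summary, dye, GC trend, the authors' log2 ratios, the t-test of the methods and leaving out each array.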

Additional observations from a re-analysis of the deposited data

How the results depend on the processing

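The number of detected members depended on the limit more than on the arrays. It was 7 in dwarf pools and 8 in normal pools with a mean above 100, 9 and 10 with every pool above 32, 18 and 19 with the background from the empty spots, and 12 and 14 with no loess and no scaling, so the order of the strains (14 in dwarf pools and 12 in normal pools) turned in these 4. Leaving out 1 array gave 13 to 14 in dwarf pools and 11 to 14 in normal pools. The GC difference was 28.9 points with a mean above 100, 25.5 with the median of the spots, and 21.1 to 21.6 without 1 array. No member was called except miR-1623 without array 1 and without array 3 (0 to 1 called over the 3 omissions), where 5 and 2 of all tested miRNAs were called. At an unadjusted p under 0.05 stood 2 members with a mean above 100 (4 of all 60 tested). There were also 2 with the background from the empty spots (8 of all 102) and with plain background subtraction (5 of all 87). The count was 3 with median centring (20 of all 87) and with the authors' log2 ratios (5 of all 87). With all miRNAs tested, 6 of 269 members stood there (20 of all 542). The methods' t-test unpaired gave 0 (3 of all 87). Leaving out array 1, 2 or 3 gave 1 each time (10 of all 90, 2 of all 85 and 3 of all 84, in that order). The median log2 ratio of the tested members was 0.35 with median centring (0.50 over all 87), 0.19 with the authors' log2 ratios, and -0.06 to 0.09 without 1 array. miR-1623, miR-1629, miR-1579 and miR-1669 kept their direction in all 16 alternatives, but not their size: the log2 ratio ran from 0.61 to 1.37, 0.28 to 0.76, 0.16 to 0.60 and 0.16 to 2.36, in that order. Some of the 16 could not move a ratio, since they changed only the signals or which miRNAs were tested. These were a mean above 100, all miRNAs tested, a mean of all 6 pools above 32 and the dye curve at its lowest intensity. Both forms of the methods' t-test also used the same ratio. Signs turned for miR-1599 (-0.81 as reported, 0.15 with median centring) and for members near 0: with median centring miR-1584 (0.35), miR-1607 (0.38), miR-1640 (-0.015), miR-1759 (0.12), miR-1770 (0.37) and miR-1777 (0.77); with plain background subtraction miR-1576 (-0.013) and miR-1587 (-0.031); with the median of the spots miR-1640 (-0.027); with the dye term miR-1587 (-0.0029); with the GC trend taken out miR-1640 (-0.0067); with the authors' log2 ratios miR-1576 (-0.10), miR-1777 (0.044) and miR-1812 (0.19); with both forms of the methods' t-test miR-1576 (-0.034) and miR-1777 (0.0019). Over the 3 omissions of 1 array, the ratio ran from -1.84 to -0.12 for miR-1599, -0.036 to 0.15 for miR-1576, -0.030 to 0.16 for miR-1587, -0.026 to 0.071 for miR-1640, -0.014 to 0.13 for miR-1763, -0.14 to 0.11 for miR-1770 and -0.38 to 0.21 for miR-1777. The cause of these turns was not tested. An alternative chosen after seeing the data, in which spots not above background took the dye curve at its lowest intensity, gave 19 members in dwarf pools and 11 in normal pools.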
